A study of Homo sapiens with 4 samples.

Results

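Cells that invade tissue can open the extracellular matrix, and 9 genes of that machinery were examined in FLO-1LM and FLO-1 parental cells. They comprised the matrix metalloproteinases *MMP1*, *MMP2* and *MMP7*, the urokinase genes *PLAU* and *PLAUR*, the inhibitors *TIMP1*, *TIMP2* and *TIMP3*, and the aminopeptidase gene *ANPEP*. Each was found by its symbol and Ensembl identifier among the 63677 genes counted. The genes were picked by name with the outcome of an earlier comparison of the same libraries known, so their differences between the lines are given as a description. They were part of the fit over all genes, and where one is said to be past its cut-off, this too is a description and no independent test. FLO-1 is an established line of human esophageal adenocarcinoma. FLO-1LM is a subline from a single liver deposit, obtained after FLO-1 liver metastases had been passaged under the skin of NSG mice, which lack T, B and natural killer cell function. The deposit was cut away from the surrounding liver, then chopped and digested with dispase and collagenase, themselves matrix-cutting enzymes. The resulting cells were passaged in culture before use. Neither line received a treatment, and RNA was taken from cells that had reached 80% confluency, with fresh medium given 24 hr earlier. There were 2 RNAseq libraries per line, and nothing states that these came from separate cultures, so the spread between them may be technical and p-values measure that spread only.

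The matrix around epithelial cells is a mesh of collagens, laminins and proteoglycans. Matrix metalloproteinases are zinc enzymes that cut these proteins. They are made as inactive precursors, and the tissue inhibitors of metalloproteinases (TIMPs) block the active enzymes by binding the catalytic site. Urokinase, the product of *PLAU*, is a serine protease that turns plasminogen into plasmin, and its receptor, encoded by *PLAUR*, holds it on the cell surface. *MMP2* is a special case, because the membrane enzyme MMP14 and the inhibitor TIMP2 together form the surface complex that activates its precursor. Counts of RNA do not measure secretion or activity of any of these proteins.

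The sequence before the transcription start is printed for 4 of the genes, as examples of genes with and without RNA in these cells. The letters are the 250 bases before the start in the RefSeq promoter table, on build GRCh38.p14, 5′ to 3′ on the strand of the gene. Every CG dinucleotide is in capitals. *MMP7* is shown because it had no count in any library, *PLAU* because it had the highest level per kilobase, *TIMP1* because it was the only one of the genes with a higher level in FLO-1LM, and *TIMP3* as a CG-rich example with a low level.
MMP7, chr11:102530748-102530997, minus strand: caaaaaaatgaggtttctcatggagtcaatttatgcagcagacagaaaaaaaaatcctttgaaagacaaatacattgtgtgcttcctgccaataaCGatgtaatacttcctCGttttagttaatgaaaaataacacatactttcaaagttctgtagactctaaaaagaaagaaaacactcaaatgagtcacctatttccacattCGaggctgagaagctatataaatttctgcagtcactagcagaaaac
PLAU, chr10:73910882-73911131, plus strand, the second of its 2 listed starts: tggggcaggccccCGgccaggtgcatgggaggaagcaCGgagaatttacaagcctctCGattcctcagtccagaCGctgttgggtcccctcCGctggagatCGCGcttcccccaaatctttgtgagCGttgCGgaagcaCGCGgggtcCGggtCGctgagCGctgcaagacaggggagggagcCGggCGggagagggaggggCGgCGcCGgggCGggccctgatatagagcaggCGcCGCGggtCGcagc
TIMP1, chrX:47582186-47582435, plus strand: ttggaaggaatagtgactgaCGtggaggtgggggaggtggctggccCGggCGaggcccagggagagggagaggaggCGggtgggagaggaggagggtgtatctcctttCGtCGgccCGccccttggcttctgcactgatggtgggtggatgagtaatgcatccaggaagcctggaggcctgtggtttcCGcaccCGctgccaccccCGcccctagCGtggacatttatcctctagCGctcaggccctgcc
TIMP3, chr22:32801455-32801704, plus strand: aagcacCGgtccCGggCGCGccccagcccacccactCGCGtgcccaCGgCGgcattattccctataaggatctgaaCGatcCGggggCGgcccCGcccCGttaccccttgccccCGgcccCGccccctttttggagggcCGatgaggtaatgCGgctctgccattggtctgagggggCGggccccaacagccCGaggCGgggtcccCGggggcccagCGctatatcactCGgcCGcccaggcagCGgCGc

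The *MMP7* stretch held 3 CG dinucleotides, that of *TIMP1* 12, that of *PLAU* 24 and that of *TIMP3* 26. Over all 35116 stretches in the table, the median was 11. Of the 9 genes, 6 had an entry, with 8 starts between them, and *MMP1*, *MMP2* and *TIMP2* had none. *PLAUR* held 13, the other start of *PLAU* held 4, and the 2 starts of *ANPEP* held 9 and 26. The AP-1 motif TGANTCA, which reads the same on both strands, was present in the stretches of *MMP7* and *PLAUR* and in 6.57% of all stretches. The letters TATAAA stood within 50 bases before the start in *MMP7* alone among the 6 genes, searched on the strand of the gene, and in 2.63% of all. The GC box GGGCGG, searched on both strands, was found for *PLAU*, *TIMP1*, *TIMP3* and *ANPEP* and in 42.6% of all, and it can overlap CG dinucleotides by its own letters.

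The collagenase gene *MMP1* and the matrilysin gene *MMP7* could not be compared between the lines. *MMP7* (ENSG00000137673), on chromosome 11 of GRCh37 from 102391239 to 102401481, had 0 counts in each of the 4 libraries. A count of 0 allows a level of up to 0.117 to 0.156 CPM, set at 3 counts per library. CPM is the count scaled to a library of standard size after TMM scaling of the library totals, and intervals and floors cover counting error only. *MMP1* (ENSG00000196611), at 102660132 to 102668891 on the same chromosome, had 13 counts in parental replicate 1 and 0 in the other 3 libraries. The 13 counts came to 0.590 CPM, with an exact 95% Poisson interval from 0.314 to 1.01. The same interval for the 0 counts of parental replicate 2 reached 0.192 CPM. *MMP1* reads were found in only 1 library of the 4 and give no difference between the lines.

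Both genes belong to a row of related genes on chromosome 11, between 102391239 and 102826461 of GRCh37, and nearly the whole row was without counts. It holds 9 genes, *MMP7*, *MMP20*, *MMP27*, *MMP8*, *MMP10*, *MMP1*, *MMP3*, *MMP12* and *MMP13*, of which 8 had no count in any library under the identifier used. *MMP1* with its 13 counts was the exception. Outside this row, 11 of 14 metalloproteinase genes had a count, and those without were *MMP16*, *MMP26* and *MMP28*. *MMP12* (ENSG00000262406) and *MMP28* (ENSG00000271447) were read by identifiers from an annotation newer than that behind the counts. Reads counted under an older identifier would be missed, so the 0s of these genes do not show that their RNA was absent. *MMP14*, the membrane-bound collagenase, had the highest level of the family, at 28.6 CPM per kilobase of exons as the mean of the 4 libraries. Its membrane-bound relative *MMP15* followed with 18.7, and *MMP2* came next with 8.18. Among the 12 metalloproteinase genes with an entry in the promoter table, the 6 without a count held 0 to 3 CG dinucleotides before the start, and the 6 with a count held 6 to 31. Of the latter, *MMP21* had just 3 counts over the 4 libraries, so it is close to those without. The inhibitor genes *TIMP4* and *RECK* did not follow this, with 11 and 12 CG dinucleotides and 0 counts in every library. Of the 6 metalloproteinase genes without a count, all but *MMP26* lie in the chromosome 11 row. The 6 with a count lie outside it, so CG number and place on the chromosome cannot be told apart. The remaining genes of the row had no entry. Outside the row, *MMP2*, *MMP9*, *MMP16*, *MMP17*, *MMP19*, *MMP25* and *MMP28* had none either, so the CG numbers do not cover them.

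**Figure D1:**
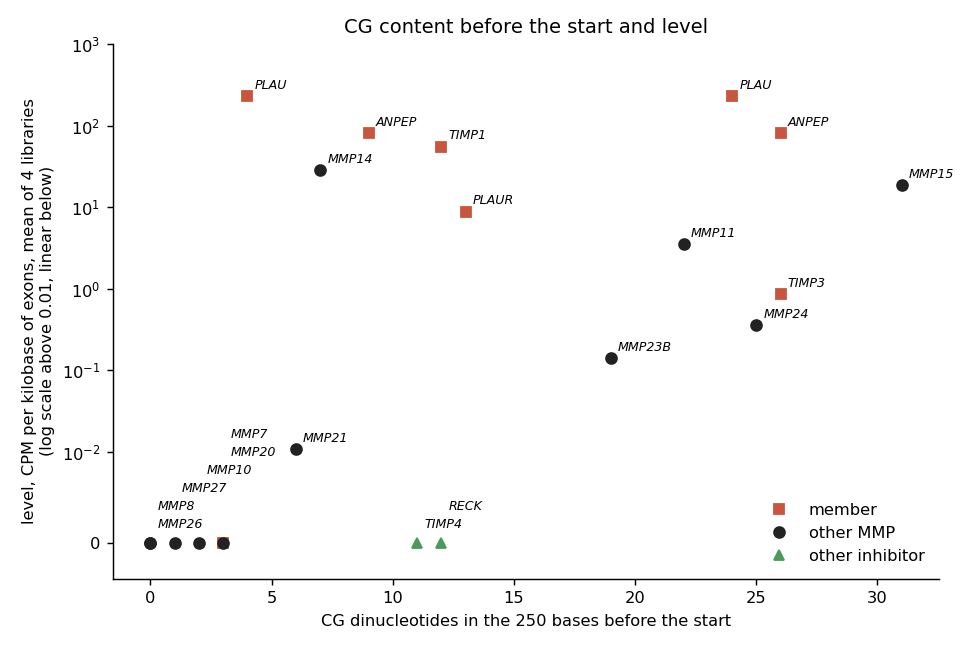
Level in CPM per kilobase of exons, as the mean of 4 libraries, against the number of CG dinucleotides in the 250 bases before the start, for the members (6 of the 9 genes, red squares, 1 point per start), other metalloproteinases (black circles) and the inhibitors *TIMP4* and *RECK* (green triangles). The vertical axis is logarithmic above 0.01 and linear below. The 6 metalloproteinases at 0 sit at 3 or fewer CG dinucleotides, and *TIMP4* and *RECK* sit at 0 with 11 and 12.

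*MMP2*, which encodes the gelatinase that cuts type IV collagen of basement membranes, had the largest difference between the lines among the 9 genes. The gene spans chromosome 16 from 55423612 to 55540603 on the plus strand of GRCh37 (ENSG00000087245). Counts were 697 and 742 in FLO-1LM and 1089 and 851 in parental cells. These correspond to 31.3 and 28.8 CPM in FLO-1LM and 49.4 and 44.4 CPM in parental cells. Both FLO-1LM libraries lay below both parental libraries, and the gap between the lines was wider than the gap within either. The log2 fold change was −0.64 (standard error 0.11, edgeR), which puts FLO-1LM at 64.0% of the parental level. As these are RNA levels of whole cultures, fewer cells that express the gene and less RNA per cell cannot be told apart. Without parental replicate 1 the log2 fold change was −0.56 (standard error 0.16), and *MMP2* was then no longer past the adjusted p cut-off of 0.05.

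The fold changes of the partners of *MMP2* in its activation were smaller. *TIMP2* had 239 and 221 CPM in FLO-1LM and 246 and 238 CPM in parental cells. The ranges of the lines overlapped, and the log2 fold change was −0.07 (standard error 0.074). *MMP14* had 134 and 141 CPM in FLO-1LM and 128 and 127 CPM in parental cells, which did not pass the cut-off (0.11 on the log2 scale, standard error 0.077, edgeR adjusted p = 0.643). The count ratio of *MMP2* to *TIMP2* within a library, which does not depend on library size, was 0.131 and 0.130 in FLO-1LM and 0.201 and 0.186 in parental cells. On the log2 scale the mean ratio was 0.57 below that of parental cells, while the libraries of a line were 0.0027 and 0.11 apart. Per kilobase of exons this ratio had a mean of −2.25 on the log2 scale over the 4 libraries, so *TIMP2* RNA was in excess of *MMP2* RNA in both lines.

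*PLAU*, the urokinase gene, had the highest level per kilobase of exons of the 9 genes in every library. It lies on chromosome 10 of GRCh37 from 75668935 to 75677254 (ENSG00000122861). Its level was 641 and 591 CPM in FLO-1LM and 735 and 722 CPM in parental cells. The lines did not overlap, and the log2 fold change was −0.24 (standard error 0.069), with FLO-1LM at 84.5% of the parental level. *PLAU* was not past the cut-off in the comparison over all genes, but was past it with library totals in place of TMM factors, with no low-count filter, with DESeq2 and without FLO-1LM replicate 1. The receptor gene *PLAUR* (chromosome 19, 44150247 to 44174699) had 40.9 and 32.3 CPM in FLO-1LM and 41.6 and 42.9 CPM in parental cells. The first FLO-1LM library was within 1 CPM of the nearest parental library, and the wider gap came from the second. Its log2 fold change was −0.21 (standard error 0.12), which depended on the FLO-1LM library used. It was −0.39 and past the cut-off without FLO-1LM replicate 1, and −0.045 and not past it without FLO-1LM replicate 2.

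The count ratio of *PLAU* to *PLAUR* was 15.7 and 18.3 in FLO-1LM and 17.7 and 16.9 in parental cells, so the lines overlapped. Ratios of *MMP1* and *MMP7* to *TIMP1* had no value in libraries without counts and were left out.

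Of the inhibitors, *TIMP1*, which also acts as a growth factor, was the gene that pointed the other way. It lies on the X chromosome from 47441807 to 47446188 of GRCh37 (ENSG00000102265). The level was 90.6 and 79.0 CPM in FLO-1LM and 76.4 and 74.1 CPM in parental cells. The lower FLO-1LM library was closer to the parental libraries than to its own partner. The log2 fold change was 0.17 (standard error 0.090), and no alternative put it past the cut-off. *TIMP3*, the inhibitor that stays bound to the matrix, was scarce, with 75 and 101 counts in FLO-1LM and 87 and 85 in parental cells. Its level was 3.37 and 3.92 CPM in FLO-1LM and 3.95 and 4.43 CPM in parental cells. The second FLO-1LM library and the first parental library nearly coincided, and the log2 fold change of −0.20 was smaller than its standard error of 0.27. For a gene with so few counts, a difference of the size seen for *MMP2* was not much larger than 2 standard errors.

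*ANPEP* encodes aminopeptidase N, or CD13, a membrane zinc enzyme that trims amino acids from the ends of peptides. It lies on chromosome 15 of GRCh37 from 90328126 to 90358633 (ENSG00000166825). Its level was 389 and 355 CPM in FLO-1LM and 431 and 451 CPM in parental cells. The lines did not overlap, and the log2 fold change of −0.25 (standard error 0.073) was close to that of *PLAU*, with FLO-1LM at 84.4% of the parental level. *ANPEP* was past the cut-off with library totals only, with no low-count filter and without FLO-1LM replicate 1, and not otherwise.

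**Figure D2:**
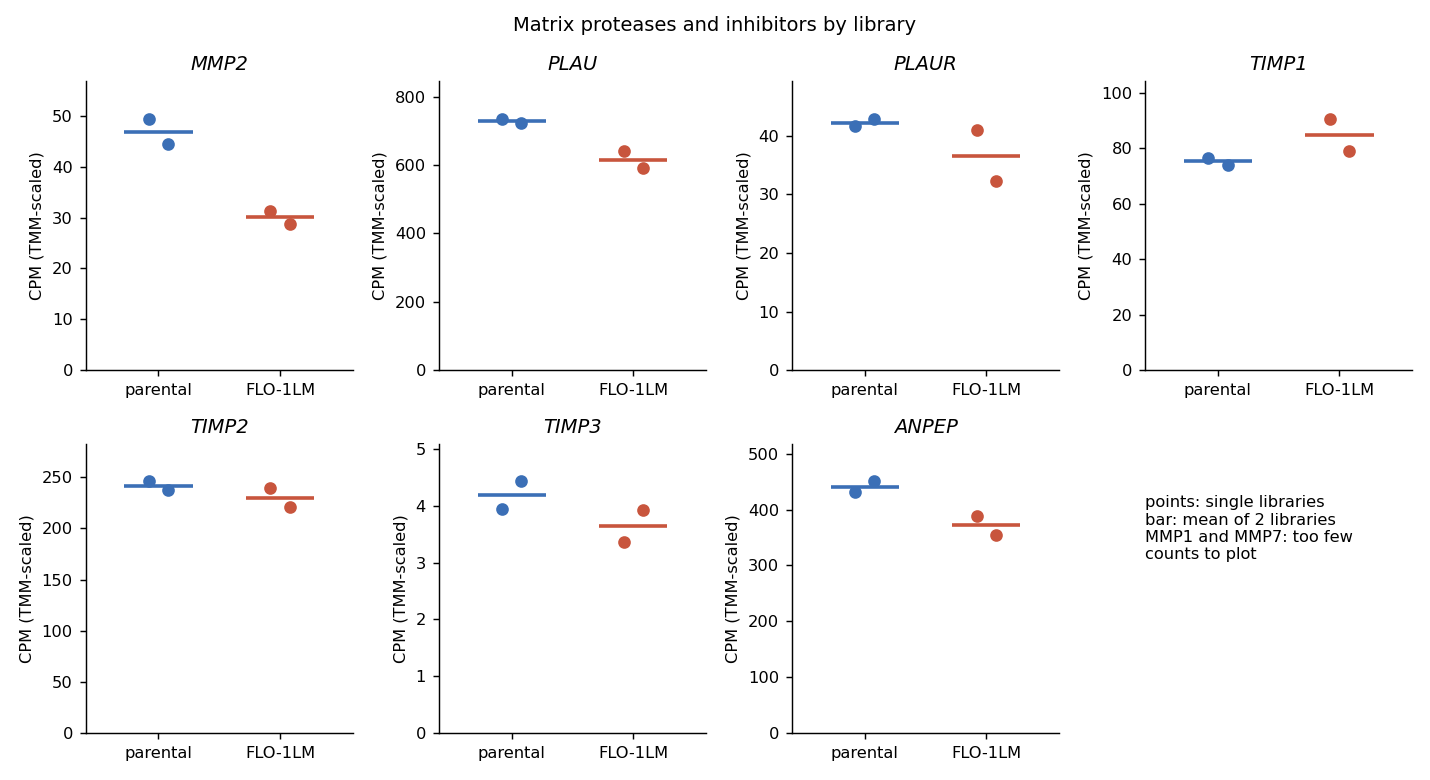
Level in CPM after TMM scaling of the 7 genes with enough counts, with each library as a point, the mean of the 2 libraries of a line as a bar, and each vertical axis starting at 0. *MMP2* lies at 49.4 and 44.4 CPM in parental cells and at 31.3 and 28.8 in FLO-1LM, *TIMP1* alone lies higher in FLO-1LM, and the points of *TIMP2* overlap.

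When levels were divided by the length of the annotated exons, the order over the 4 libraries was *PLAU*, *ANPEP*, *TIMP1*, *TIMP2*, *PLAUR*, *MMP2* and *TIMP3*. The means were 228 CPM per kilobase for *PLAU* (SD 23.2, n = 4 libraries of both lines) and 80.6 for *ANPEP* (SD 8.52). *TIMP1* followed with 55.3 (SD 5.08) and *TIMP2* with 38.0 (SD 1.72). *PLAUR* and *MMP2* were next with 8.84 (SD 1.08) and 8.18 (SD 2.12), and *TIMP3* had 0.852 (SD 0.095). Of the neighbors in this order, *PLAUR* and *MMP2* were not separated on this scale, since their ranges overlapped and *PLAUR* was above *MMP2* in 3 of 4 libraries. For each other pair of neighbors, the lowest library of the higher gene lay above the highest library of the lower gene. The order was the same with the longest annotated transcript in place of all exons, but the distances were not. *PLAUR* then came to 20.05 to 26.6 CPM per kilobase and *MMP2* to 8.20 to 14.1, so that these were separated. *TIMP2* came to 60.5 to 67.4 and *TIMP1* to 67.6 to 82.8, which nearly touched. Per kilobase, urokinase RNA exceeded the RNA of its receptor, and *TIMP1* and *TIMP2* RNA exceeded *MMP2* RNA, in each of the 4 libraries.

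Of the 9 genes, 7 passed the low-count filter, and 1 of them, *MMP2*, was past an adjusted p of 0.05 in edgeR's quasi-likelihood test over all genes. Of the 17143 genes tested, 2.23% were past it, 1.83% lower and 0.402% higher in FLO-1LM. With protein-coding genes only, 1.99% of genes were past it and *MMP2* remained the only one of the 9. Since the genes were chosen with this comparison known, nothing is read from the count. Both FLO-1LM libraries lay below both parental libraries for 5 of the 7 genes, and above them for *TIMP1*. The same was true of 21.7% of all tested genes for the lower direction and 20.9% for the higher one. The median log2 fold change of the 7 genes was −0.21, against 0.0016 for all tested genes. For any 1 gene alone, the smallest p that exact permutation of 2 and 2 libraries allows is 0.333.

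Most of the wider set of protease genes did not pass the test. Besides the 9 genes, 120 genes in 10 lists were read, covering other metalloproteinases, plasminogen activation, ADAM and ADAMTS enzymes, membrane serine proteases, cathepsins, membrane peptidases, and the inhibitors and inducers of these. Of these, 69 had enough counts, and 3 were past the cut-off, 2 lower and 1 higher in FLO-1LM, where 2.23% of all tested genes were past it. The median log2 fold change of the 69 was −0.04, with 41 below 0 and 28 above. The broad protease inhibitor *A2M*, which traps enzymes of several classes, fell from 33.8 and 33.1 CPM in parental cells to 24.9 and 22.9 in FLO-1LM. The difference was −0.49 on the log2 scale (standard error 0.12, edgeR adjusted p = 0.0324). *ADAMTS15*, which encodes a secreted enzyme that cuts proteoglycans, fell from 5.40 and 6.0 CPM to 1.89 and 3.03, at −1.20 (standard error 0.29, edgeR adjusted p = 0.0355). *MME*, which encodes the membrane peptidase neprilysin (CD10), rose from 12.7 and 11.4 CPM to 18.2 and 20.6, at 0.69 (standard error 0.15, edgeR adjusted p = 0.0221).

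*MME* and *ANPEP* pointed in opposite directions, although both encode zinc peptidases of the cell surface. Neither line overlapped the other for *MME*, *A2M* or *ADAMTS15*. The call of each was lost with DESeq2, at an adjusted p of 0.0832 for *A2M*, 0.123 for *ADAMTS15* and 0.0505 for *MME*, and with edgeR when either parental library was left out. Over all alternatives, the adjusted p of *A2M* ran from 0.00167 to 0.473, that of *ADAMTS15* from 5.33e-05 to 0.373 and that of *MME* from 0.000201 to 0.343.

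In the other 7 lists, none of the 47 genes tested was past the cut-off in edgeR. At an unadjusted p below 0.05 there were 7, and with adjusted p-values limma voom gave 1 and DESeq2 gave 0. Over all genes, edgeR with RLE factors had 2115 of 17143 tested at an unadjusted p below 0.05. With adjusted p-values, limma voom had 368 and DESeq2 298 over all genes. The 2 genes with the highest level per kilobase in each list mostly had small fold changes. *CTSB*, which encodes the lysosomal protease cathepsin B, was at 0.06 on the log2 scale (standard error 0.068) and *CTSD*, which encodes cathepsin D, at −0.10 (standard error 0.074). *SPINT2*, an inhibitor of membrane serine proteases, was at −0.04 (standard error 0.071), the membrane sheddase *ADAM9* at 0.04 (standard error 0.072), and *BSG*, the surface inducer of metalloproteinases, at −0.05 (standard error 0.070). *ETS1*, a transcription factor that acts on protease promoters, was at 0.10 (standard error 0.071). *LRP1*, which encodes an endocytic receptor, was at 0.19 (standard error 0.079, edgeR adjusted p = 0.308). In the lists with a call, *ECE1* was at −0.19 (standard error 0.073) and *CPD* at 0.03 (standard error 0.074), both membrane peptidase genes that did not pass. Other named genes of lower abundance had wider errors, such as *MMP9*, the second gelatinase, at −0.52 (standard error 0.38), and *TMPRSS2* at −0.73 (standard error 0.23, edgeR adjusted p = 0.144).

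**Figure D3:**
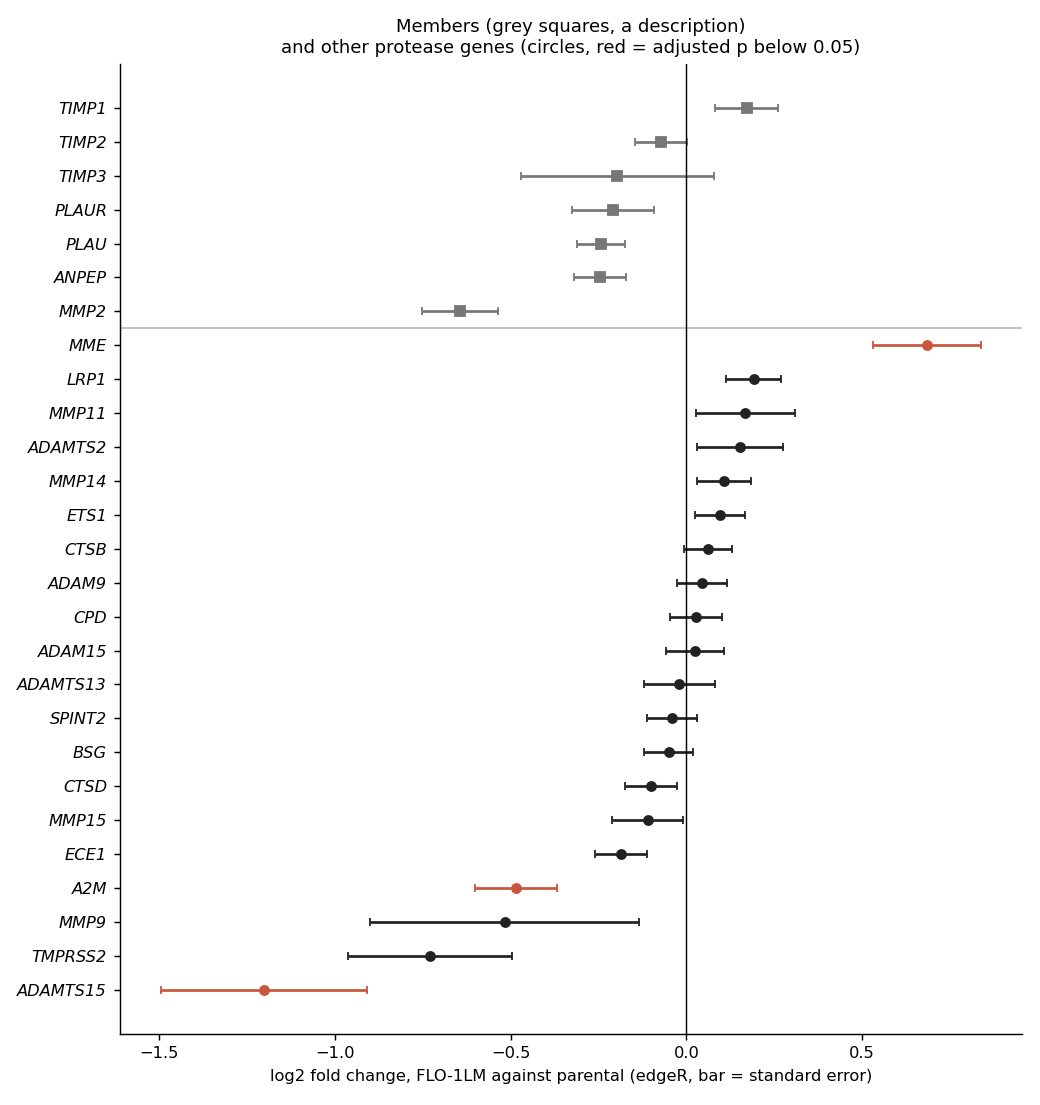
Log2 fold change of FLO-1LM against parental cells, with bars for the standard error from edgeR, for 7 of the 9 genes (grey squares, above the line) and for other protease genes (circles), which are those past an adjusted p of 0.05 (red) and those with the highest level in each list (black). *MMP2* at −0.64 stands apart from the other grey squares, and *A2M* and *ADAMTS15* lie on the lower side while *MME* lies at 0.69.

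Total counts ran from 19060310 to 25920336 per library. Of the epithelial markers, the keratin genes *KRT8* and *KRT18* had 4068 to 9568 counts per library, whereas *EPCAM* had 3 to 12 and *GRHL2* had 0. *MMP2*, the TIMPs and *ANPEP* are also genes of connective tissue and liver, so markers of such cells were summed. The deposit grew in a mouse, and the reads were mapped to the human genome. The sums count human genes, so they cannot show whether mouse cells of the host were carried along. The 9 fibroblast markers came to 18.6 to 19.8 CPM in FLO-1LM and 19.2 to 19.8 CPM in parental cells. Most of this was *COL1A1*, with 186 to 284 counts per library, and *ACTA2*, with 119 to 169, while *COL3A1*, *DCN* and *THY1* were at 0. The 6 hepatocyte markers came to 13.4 to 14.8 CPM in FLO-1LM and 16.4 to 18.1 in parental cells, nearly all of it *SERPINA1*, with *ALB*, *APOB*, *TTR* and *FGB* at 0. The 6 blood cell markers reached at most 1.17 CPM and the 4 endothelial markers found at most 0.313 CPM. The sum of the 10 epithelial markers, most of it *KRT8* and *KRT18*, was lower in FLO-1LM, at 499 to 516 CPM against 873 to 885. Both FLO-1LM libraries lay below both parental libraries for 6 of the 10 and above them for 1, *KRT7*. *EPCAM* and *CLDN7* did not separate the lines. Over all tested genes, 21.7% lay below in this way and 20.9% above, and of the 10 markers 8 were tested. The part of these markers in the protease results was not tested.

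Genes on the opposite strand had few counts, though not few beside *TIMP3*. *C10orf55*, whose exons share 915 bases with those of *PLAU*, had 120 and 213 counts in FLO-1LM and 215 and 218 in parental cells, or 0.840% to 1.57% of the *PLAU* counts. ENSG00000267601, opposite 367 bases of *TIMP2* exon, had 9 and 0 counts in FLO-1LM and 41 and 28 in parental cells, at most 0.756% of the *TIMP2* counts. *SYN1* and *SYN3*, within whose bodies *TIMP1* and *TIMP3* lie, share no exon with them. *SYN1* counts came to 1.78% to 3.94% of the *TIMP1* counts, while *SYN3* counts, at 20 to 35 per library, came to 23.5% to 42.7% of those of the scarce *TIMP3*. The libraries were directional, but the strand setting of the counting is not stated, so reads of such pairs cannot be fully told apart. *CEP295NL*, on the strand of *TIMP2* and sharing 224 bases of exon with it, had 13 to 27 counts per library.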

How the data were processed

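RNAseq was available from 2 FLO-1LM and 2 FLO-1 parental libraries, and their groups were taken from the cell line labels. The authors prepared directional libraries with total RNA, trimmed the reads with Trimmomatic 0.30 after bcl2fastq 2.17, mapped them to GRCh37 with an aligner not named in the sources used here, and deposited raw read counts per Ensembl gene. Genes were named from a GENCODE annotation mapped to GRCh37, a newer release than that behind the counts, and it also gave the exon lengths. Genes were filtered with filterByExpr (about 10 counts in 2 or more libraries after allowing for depth, and 15 in all), scaled by TMM and compared with glmQLFTest in edgeR 4.0.16 (R 4.3.3), with Benjamini-Hochberg adjustment and a cut-off of 0.05. Standard errors were derived from the fold change and its F statistic. Scripts were tested on simulated data. Promoter sequences are from RefSeq on GRCh38.p14, matched by symbol. Alternatives used RLE factors, library totals, other filters, DESeq2 1.42.0, limma voom (limma 3.58.1), no mitochondrial genes, and each library left out. A fit of protein-coding genes only was chosen after seeing the data.

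The genes and lists were chosen with earlier results of these data known. The other protease genes named are those past the cut-off and the 2 with the highest level per kilobase in each list, of which 1 is not reported here. *EPCAM*, *KRT8* and the other markers come from lists of cell type markers, of which 1 endothelial gene was not found by symbol. Genes singled out beyond these were chosen after their values were seen.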

Additional observations from a re-analysis of the deposited data

How the results depend on the processing

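Every one of the 7 compared genes, and *A2M*, *ADAMTS15* and *MME*, kept its direction under all 12 alternatives. All alternatives drew on the same 4 libraries. For each of these genes except *TIMP2* the lines did not overlap, so leaving out 1 library could hardly reverse the direction. The log2 fold change of *TIMP2* ran from −0.13 to −0.015 with 1 library left out. Over all genes, 414 were past the cut-off with library totals only and 298 with DESeq2, which had 1513 at an unadjusted p below 0.05. Of the 7, *MMP2* alone was past the cut-off in the reported comparison. Past it were 3 genes with library totals only (*MMP2*, *PLAU* and *ANPEP*), the same 3 with no low-count filter, and 2 with DESeq2 (*MMP2* and *PLAU*). With 1 library left out, this count ran from 0 to 4, the 0 being without parental replicate 1, where edgeR had 3 at an unadjusted p below 0.05. Of the other protease genes, those past the cut-off and lower numbered 4 with no low-count filter, and DESeq2 had 0 lower and 0 higher, with 7 and 3 at an unadjusted p below 0.05. With 1 library left out, they ran from 0 to 4 lower and from 0 to 3 higher. The counts of 0 came without either parental library, where edgeR had 5 or 6 lower and 1 or 2 higher at an unadjusted p below 0.05. Over all genes, 382 were past the cut-off, 577 with no low-count filter, 250 with protein-coding genes only, and 116 to 1052 with 1 library left out. In these fits the spread rests on the line that still has both libraries, and the lone library is assumed to vary like it. The log2 difference in the ratio of *PLAU* to *PLAUR* was −0.03 and ran from −0.14 to 0.084 with 1 library left out, turning to 0.084 without FLO-1LM replicate 1 and 0.0079 without parental replicate 1, so it has no stable sign. The cause of these shifts was not tested. No paired analysis was possible because the replicate numbers only follow the order of the libraries and pair nothing. Depth limits *MMP1*, *MMP7* and *TIMP3* most, with 13, 0 and 348 counts over the 4 libraries.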
